A study of Homo sapiens with 44 samples.

Results

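The laminin chains and integrin subunits of cells grown on laminin were followed while H1, a line of human embryonic stem cells, was differentiated toward heart muscle. The set holds 37 genes of the 60499 in the deposited count table, namely 11 laminin chains and 26 integrin subunits taken by gene family and matched by symbol to GENCODE 29. Of these, 36 passed the filter on low counts and were tested among 22955 genes, and ITGAD, a leukocyte integrin chain, was not tested. At least 1 group reached a mean of 10 TPM (a level corrected for transcript length, here rescaled so that protein-coding genes sum to 1000000 in each well) for 24 of the 37.

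RNA was taken from 44 wells in 12 groups, all of the same H1 line. The starting group, Pluri, held undifferentiated cells in 3 wells, by their label on LN-521 alone, and all other groups grew on a mix of LN-521 and LN-221. The growth protocol names the mix for every sample, so the sources conflict on the coating of Pluri, and the label was followed. CHIR99021, a GSK3 inhibitor that starts Wnt signalling, was added at day 0, and IWP2, which blocks Wnt secretion, at day 3. D0 (3 wells) was sampled in Nutristem medium, D1 and D3 (3 wells each) with CHIR99021, D5 (5 wells) with IWP2, and D7 and D9 (5 wells each) with neither. D1 to D9 were in RPMI with B27 lacking insulin. D11 (5 wells), D14, D20, D30 and D90 (3 wells each) were in RPMI with CTS B-27. By these labels D1 and D3 differ in day alone, as do D7 and D9, and the groups from D11 to D90. D3, D5 and D9 differ from each other in day and inhibitor, and D9 and D30 in day and medium. D0 and D1 differ in day, medium and inhibitor together, and D0 differs from Pluri in the labelled coating. The labels call the wells biological replicates, but all are of 1 line, so p-values measure the spread between wells.

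Laminins are trimers of an alpha, a beta and a gamma chain that build the basement membrane, the thin matrix sheet on which epithelial and muscle cells sit. The alpha chain carries the main cell-binding site: LAMA1 is typical of the early embryo, LAMA5 of the pluripotent epiblast and of mature epithelia and vessels, LAMA2 of skeletal and heart muscle, and LAMA4 of vessels and muscle. Integrins are receptors made of an alpha and a beta subunit that tie such matrices to the actin cytoskeleton. ITGA3, ITGA6 and ITGA7 pair with ITGB1 to bind laminins, and other alpha subunits bind collagens, fibronectin and related ligands, or occur on leukocytes and platelets. The recombinant coatings are named after their chains: LN-521 is a trimer of the LAMA5, LAMB2 and LAMC1 products, and LN-221 has the LAMA2 product in place of that of LAMA5. The coatings are protein and give no reads, so the values below are transcripts made by the cells.

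The promoters of LAMA5, LAMA2 and ITGA6 are shown because these genes follow unlike courses: LAMA5 RNA was present throughout, LAMA2 RNA came late, and ITGA6 RNA was high in stem cells and low later. Each stretch is the 250 bases before a transcription start in RefSeq (GRCh38.p14), 5′ to 3′ on the gene's strand, at chr20:62367313-62367562 on the minus strand for LAMA5, at chr6:128882888-128883137 on the plus strand for LAMA2 and, for the more upstream start of ITGA6 in the table, at chr2:172427086-172427335 on the plus strand. Capitals mark matches, on either strand, to the GC box GGGCGG, the E-box CANNTG, the GATA motif AGATAA, the TCF/LEF motif CTTTGA and the TATA box TATAAA.
LAMA5: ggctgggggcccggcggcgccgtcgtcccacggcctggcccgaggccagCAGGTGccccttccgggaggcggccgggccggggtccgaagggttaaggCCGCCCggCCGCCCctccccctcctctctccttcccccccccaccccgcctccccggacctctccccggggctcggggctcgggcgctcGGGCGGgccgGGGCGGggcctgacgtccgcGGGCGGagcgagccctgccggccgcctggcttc
LAMA2: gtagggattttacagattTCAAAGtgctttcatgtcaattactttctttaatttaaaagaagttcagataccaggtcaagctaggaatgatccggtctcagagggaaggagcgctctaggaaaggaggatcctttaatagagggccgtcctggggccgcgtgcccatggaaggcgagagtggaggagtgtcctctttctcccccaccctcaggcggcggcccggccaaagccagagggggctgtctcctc
ITGA6: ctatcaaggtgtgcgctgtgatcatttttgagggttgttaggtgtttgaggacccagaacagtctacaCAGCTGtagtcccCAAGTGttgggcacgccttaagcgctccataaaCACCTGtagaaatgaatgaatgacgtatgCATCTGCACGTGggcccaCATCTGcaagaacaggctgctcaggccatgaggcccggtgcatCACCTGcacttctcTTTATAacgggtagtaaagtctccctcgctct
The LAMA5 window was 82.8% G or C and held 5 GC boxes and 1 E-box, the LAMA2 window was 53.2% G or C and held 1 TCF/LEF motif, and the ITGA6 window was 50.8% G or C and held 7 E-boxes and 1 TATA box. No other motif of the 5 matched in these windows. Over 35114 promoter windows of the same length, the median was 58.0% G or C. Of these windows 42.6% held a GC box, 61.8% an E-box, 9.2% a GATA motif, 11.2% a TCF/LEF motif and 10.7% a TATA box. Promoters were listed for 26 of the 37 genes. These matches are descriptions of the sequence, and which start site the cells used was not measured here.

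Library totals ran from 6937136 to 33498022 estimated counts, so that 3 counts equal 0.0896 to 0.432 CPM, which are counts scaled to a library of 1000000. Wells of a group differed beyond sampling noise, and each was counted as a sample. Some wells stood closer together by chi-square per gene, which is larger where 2 wells differ more. At D90 it was 31.74 between replicates 2 and 5, and 246.2 and 189.5 between these and replicate 4. At D9 it was 41.22 between replicates 3 and 4, and 104.3 to 228.8 between these and the others. Such spread cannot show whether the wells came from separate differentiation runs. If close wells are not independent, p-values that count each as 1 sample are too small. Summed pluripotency markers (POU5F1, NANOG, SOX2, LIN28A) had a mean of 3506 TPM at D0 and 6.15 at D90, and summed cardiomyocyte markers (TNNT2, MYH6, MYH7, ACTN2, MYL7, NKX2-5) 57.4 and 36746 TPM, in the order of the labelled days. Wells of the later days differed in marker RNA of several cell types. At D9, summed endoderm and liver markers ran from 769 to 9813 TPM, highest in replicate 2. That well had 8023 TPM of cardiomyocyte markers, against 14913 to 25827 in the other wells. At D11, replicates 1 and 2 had 6775 and 12818 TPM of summed endoderm and liver markers and the other 3 wells 245 to 269. At D30, replicate 3 had 12214 TPM of cardiomyocyte markers against 25366 and 32455. D30 replicate 10 had the lowest RNA integrity score (7.4) and total (11715812 counts) of that group. Replicates 1 and 3 had scores of 9.5 and 10 and totals of 27411186 and 23661479. The part of RNA quality and depth in its values was not tested. At D90, replicate 4 had 49814 TPM of cardiomyocyte and 899 of fibroblast markers, against 29233 and 31192, and 5216 and 2783, in the other wells. In such bulk RNA, fewer cells of a type and less RNA per cell cannot be told apart.

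A gene was called when edgeR's quasi-likelihood test gave an adjusted p under 0.05 over all 22955 genes and the log2 fold change was at least 1 in size. Over 7 comparisons along the course there were 63 calls in 25 of the 36 tested members, and in 54 of the calls the wells of the 2 groups did not overlap. The matching counts over all genes were not taken, and a call itself favours wells that do not overlap, so both counts are only descriptions. From Pluri to D0, 2 of 36 members rose (5.56%, beside 2.73% of all genes tested) and 0 fell (all genes 0.183%; 0 members were lower at an unadjusted p under 0.05 by edgeR, DESeq2 or limma). From D0 to D1, 1 rose (2.78%; all genes 3.86%) and 6 fell (16.7%; all genes 9.66%). From D1 to D3, 7 rose (19.4%; all genes 11%) and 3 fell (8.33%; all genes 6.8%). From D3 to D5, 4 rose (11.1%; all genes 5.75%) and 7 fell (19.4%; all genes 4.34%). From D5 to D9, 8 rose (22.2%; all genes 6.84%) and 1 fell (2.78%; all genes 3.39%). From D9 to D30, 9 rose (25% of members; all genes 9.69%) and 6 fell (16.7%; all genes 9.25%). From D30 to D90, 4 rose (11.1%; all genes 2.65%) and 5 fell (13.9%; all genes 2.44%). The last 2 counts leaned on 1 well: without replicate 3 of D30, 5 rose and 1 fell from D30 to D90, and 6 rose and 8 fell from D9 to D30. The median log2 fold change of the members ran from -0.71 (D0 to D1) to 0.48 (D5 to D9), and that of all genes stayed between -0.07 and 0.07. Neighbouring comparisons share a group, so their calls are not independent.

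**Figure D1:**
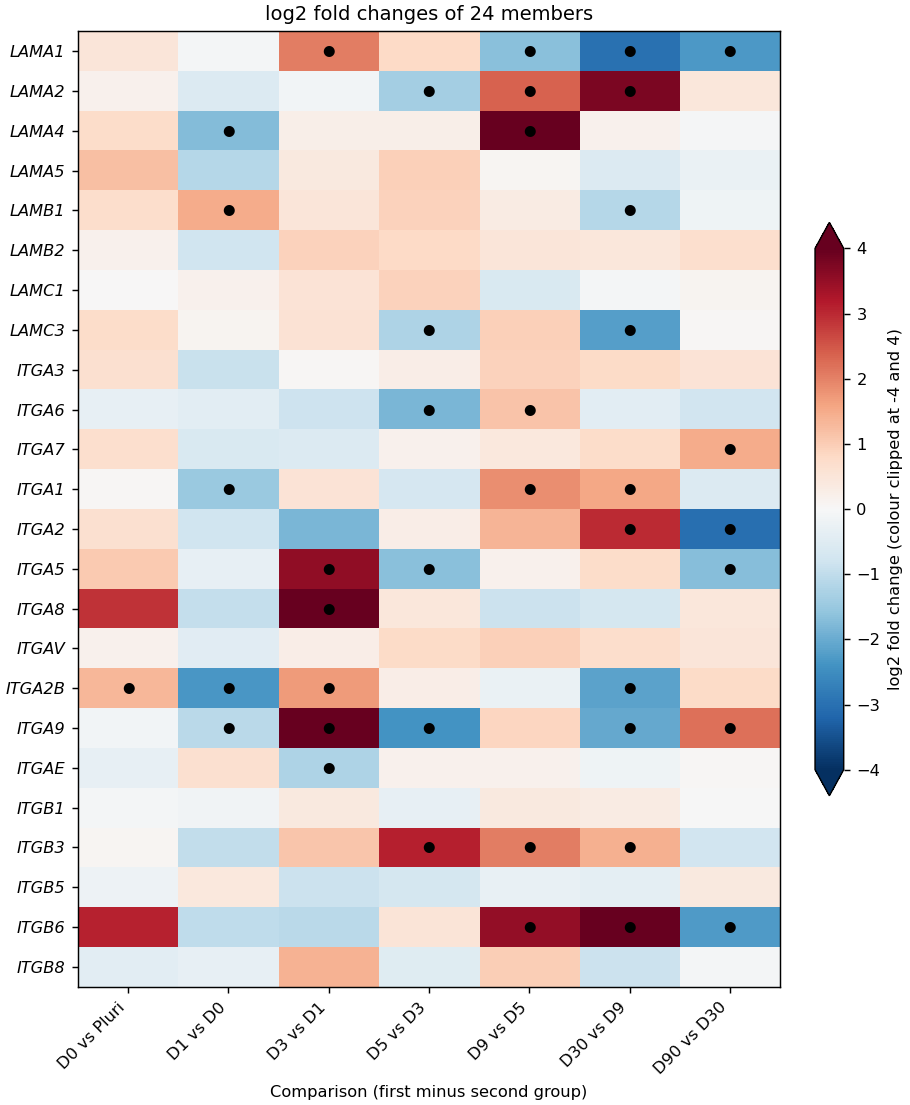
Log2 fold changes (colour, clipped at -4 and 4) of the 24 members that reached 10 TPM, by gene (rows) and comparison (columns, first minus second group), with a dot where the gene was called. LAMA1, LAMA2 and LAMA4 carry calls in 2 or more columns, while LAMA5, LAMB2, LAMC1, ITGA3, ITGAV, ITGB1, ITGB5 and ITGB8 carry none.

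Among the laminin alpha chains, LAMA1 peaked at D5 and was then nearly lost. The 3 wells held 158 to 164 CPM at D1 and 623 to 729 at D3, and the 5 wells of D5 held 879 to 1387 CPM. The step from D1 to D3 was 4.13-fold (log2 fold change 2.05, SE 0.37, edgeR adjusted p = 4.1e-05). The gene then fell by 1.66 on the log2 scale from D5 to D9 (SE 0.28, adjusted p = 2.8e-05), by 2.99 from D9 to D30 (SE 0.37, adjusted p = 5.3e-08) and by 2.30 from D30 to D90 (SE 0.38, adjusted p = 0.00013). In an edgeR fit of D30 and D90 alone the last change was -2.29 (adjusted p = 0.1), which is not a call. The D90 wells held 6.68, 9.53 and 12.1 CPM, below all wells of all other groups. LAMA1 spans chr18:6941744-7117814 on the minus strand. At D20 the wells were split, with 113 and 87.5 CPM in replicates 1 and 2 and 423 in replicate 3, the D20 well with the most endoderm and liver marker RNA (5901 TPM against 2372 and 1476); the part of those cells in this value was not tested.

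LAMA4 was low until D5 and came on between D5 and D9. The 5 wells of D5 held 0.557 to 2.53 CPM, those of D7 25.7 to 44.5 and those of D9 90.9 to 183. The rise from D5 to D9 was 102-fold (log2 6.67, SE 0.37, edgeR adjusted p = 4.1e-16), the largest among the 24 members that reached 10 TPM in these 7 comparisons. Before it, from D0 to D1, the gene fell by 1.74 on the log2 scale (SE 0.43, adjusted p = 0.0028), from 3.47 to 1.03 CPM. After D9 the group means stayed between 128 and 178 CPM, and no later comparison was called. Endothelial markers (PECAM1, CDH5, TEK, TIE1, VWF) moved in part with it: their sum was 22.7 to 90.5 TPM at D5 and 69.3 to 123 at D9, but 3.42 to 17.0 at D90, where 3 of the 5 were under 1 TPM in every well and LAMA4 held 129 to 186 CPM. The summed cardiomyocyte markers had means of 1152 TPM at D5 and 17407 at D9. The part of either cell type was not tested. At D11 the wells rich in endoderm and liver markers had the lowest LAMA4, 89.7 and 65.3 CPM, against 200 to 220 in the other 3. The same wells had the lowest RNA integrity scores of D11 (8.6 and 8, against 9.2 to 9.5). Their totals were also the lowest (18014203 and 19060126 counts, against 23631168 to 31323325). The part of cell mixture, RNA quality or depth was not tested.

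LAMA2, the muscle laminin chain and the chain of LN-221, dipped at D5 and D7 and had a higher group mean at each later day sampled. Its wells held 27.1 to 29.6 CPM at D0 and 13.9 to 20.5 at D3, then 5.01 to 9.96 at D5 and 28.3 to 42.3 at D9. The wells at D30 held 374, 440 and 595 CPM. The fall from D3 to D5 was 2.58-fold (log2 -1.36, SE 0.29, edgeR adjusted p = 0.00074). The rise from D5 to D9 was 5.10-fold (log2 2.35, SE 0.27, adjusted p = 1.6e-08) and that from D9 to D30 a further 13.5-fold (log2 3.76, SE 0.29, adjusted p = 2.9e-12). At D90 the wells were 263, 355 and 1326 CPM, and no call was made against D30. The high well, replicate 4, is the one with the most cardiomyocyte and the least fibroblast marker RNA at D90. LAMA2 spans chr6:128883141-129516569 on the plus strand and holds the pseudogene BMPR1AP1 on the other strand. LAMA2 was not called from Pluri to D0 (28.0 CPM ± 1.43 at D0 against 24.7 ± 0.983 in Pluri, SD, n = 3 each). By the labels LN-221 was added between these groups, but the growth protocol names it for Pluri too, so its effect cannot be read from this step.

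LAMA5, the chain of LN-521, was expressed in every group and was called in none of the 7 comparisons. Pluri wells held 65.7, 75.7 and 112 CPM, D0 wells 191, 206 and 188, and D1 wells 79.9, 75.1 and 108. The D0 wells lay above all wells of both neighbours. The D0 level was 2.31-fold that of Pluri (SE of the log2 ratio 0.46, edgeR adjusted p = 0.12) and the log2 step from D0 to D1 was -1.16 (SE 0.46, adjusted p = 0.071). Neither passed, but fits of the 2 groups alone gave log2 values of 1.23 (adjusted p = 0.00031) and -1.14 (adjusted p = 4.6e-05), which pass. The step to D1 also passed with DESeq2 (-1.16, adjusted p = 0.040), with limma on TPM (-1.41, adjusted p = 0.023) and with a stricter filter on low counts (-1.24, adjusted p = 0.034). From D5 to D9 the wells spread from 129 to 374 CPM, and at D90 from 60.2 to 254. LAMA5 spans chr20:62307955-62367312 on the minus strand and overlaps ADRM1 on the other strand; whether counting used strand is not given in the sources used here, so reads of the overlap cannot be told apart. LAMA3, the epithelial alpha chain, stayed under 10 TPM in every group.

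**Figure D2:**
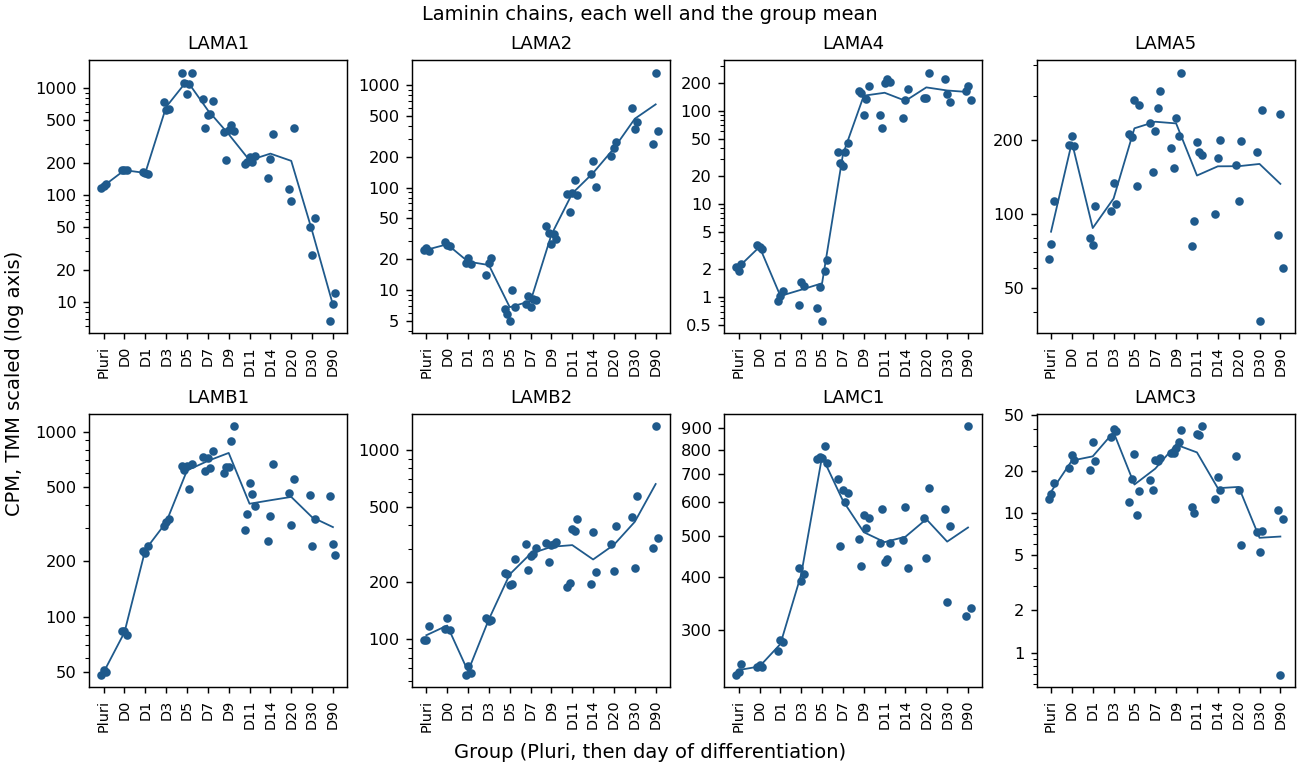
Levels of 8 laminin chains in CPM (log axis, a scale of its own in each panel) by group, with a point for each well and a line through the group means. LAMA4 steps up between D5 and D9, LAMA2 climbs from D7 on, LAMA1 falls after D5, and 1 D90 well stands high for LAMA2 (1326 CPM), LAMB2 (1334) and LAMC1 (908).

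As a share of the summed TPM of the 5 alpha chains, which corrects for transcript length, the makeup changed from LAMA5 with LAMA1 to LAMA4 with LAMA2. At D0, LAMA5 made up 64.7% ± 0.970 (SD, n = 3) and LAMA1 28.0% ± 0.976. At D5, LAMA1 alone made up 75.1% ± 5.98 (n = 5). At D9, LAMA5, LAMA1 and LAMA4 stood close together at 34.8% ± 5.62, 32.2% ± 7.83 and 30.2% ± 7.41 (n = 5), within their spread. At D90, LAMA4 held 39.8% ± 15.4, LAMA2 39.4% ± 15.3, LAMA5 17.4% ± 3.82 and LAMA1 0.825% ± 0.528 (n = 3). The LAMA5 share fell by 29.9 percentage points from D0 to D9 and by 17.4 from D9 to D90. The LAMA4 share rose by 28.0 points from D0 to D9. The LAMA2 share fell by 1.45 points from D0 to D9 and rose by 36.7 from D9 to D90. Each of these 5 differences had p = 0.0357 in a two-sided exact permutation test, the smallest that 3 against 5 wells allow, and an adjusted p of 0.0429 over 12 share tests. The LAMA4 difference from D9 to D90 was 9.61 points (exact p = 0.25, adjusted p = 0.273). Without D90 replicate 4 the LAMA2 gain was 28.4 points and the LAMA4 difference 18.5, and in that well LAMA2 made up 56.1% and LAMA4 22.1%, and in the other 2 LAMA4 exceeded LAMA2.

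**Figure D3:**
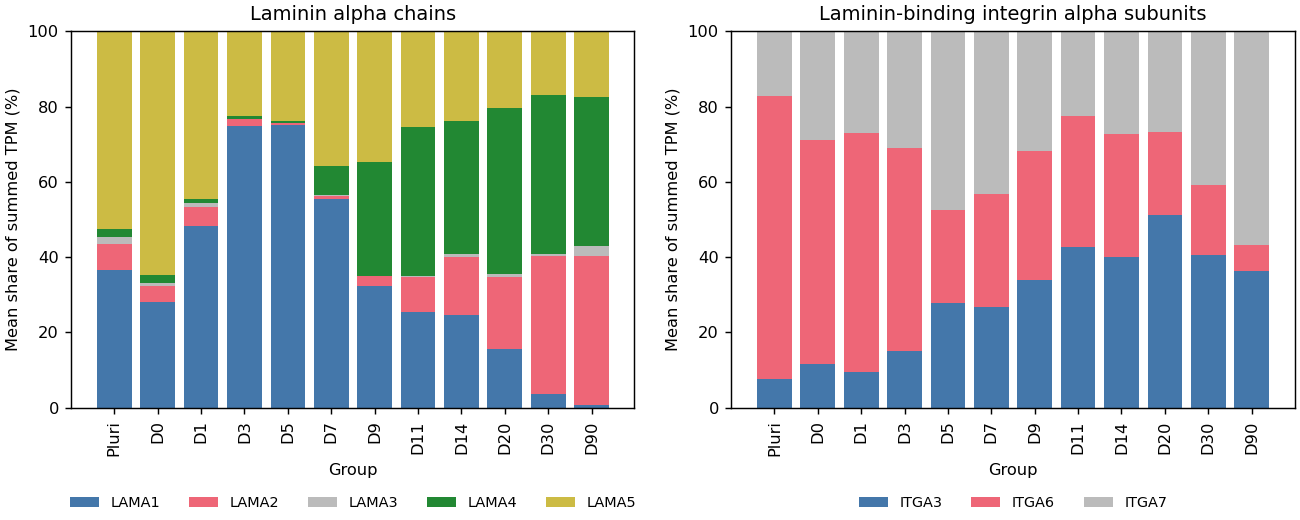
Mean share (%) of the summed TPM of the laminin alpha chains (left) and of the 3 laminin-binding integrin alpha subunits (right), by group, stacked to 100. LAMA5 and LAMA1 fill most of the left bars up to D7 and LAMA4 and LAMA2 most of them from D20, and the ITGA6 share on the right goes from 75.1% in Pluri to 6.94% at D90.

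The beta chains exchanged places and then returned. LAMB1, the beta chain of embryonic laminins, rose 2.79-fold in the 1 day from D0 to D1 (log2 1.48, SE 0.27, edgeR adjusted p = 0.00011), with wells at 79.2 to 84.1 CPM and then 222 to 241. It was the only member that rose in that comparison. It reached 597 to 1071 CPM at D9 and fell 2.23-fold by D30 (log2 -1.15, SE 0.25, adjusted p = 0.00047), to 242, 339 and 454 CPM. Without D30 replicate 10 that change was -0.95 (adjusted p = 0.0087), under the size needed for a call. LAMB2, the beta chain of both coatings, was called in no comparison. Its step from D1 to D3 was 0.91 on the log2 scale (SE 0.35, adjusted p = 0.045), with wells at 65.0 to 71.9 CPM and then 125 to 130.

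LAMB2 made up 71.1% ± 1.76 (n = 3) of LAMB1 plus LAMB2 TPM at D0, 34.7% ± 2.72 at D1, 42.8% ± 5.95 (n = 5) at D9 and 73.5% ± 17.3 (n = 3) at D90. The drop of 28.3 points to D9 and the gain of 30.7 points to D90 each had an exact permutation p of 0.0357, the smallest possible (adjusted p = 0.0429). Without D90 replicate 4, whose LAMB2 level of 1334 CPM compares with 302 and 344 in the other wells, the gain was 22.5 points. DLD overlaps LAMB1 on the other strand, so their reads may not be separate. LAMB3, the beta chain of skin laminin, had group means of at most 7.90 TPM and LAMB4 of at most 1.28.

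LAMC1, the gamma chain of most laminins, was high throughout, from 235 CPM in the lowest Pluri well to 817 in the highest D5 well and 908 in D90 replicate 4. From D3 to D5 it changed by 0.93 on the log2 scale (SE 0.21, adjusted p = 0.0014), with wells at 391 to 419 and 744 to 817 CPM, and from D5 to D9 by -0.59 (SE 0.18, adjusted p = 0.013), both below the size set for a call. At D5 the mean was 276 TPM, the same as that of LAMA1 (276) and near that of LAMB1 (245), while LAMB2 stood at 152 and LAMA5 at 88.4. The trimer of embryonic laminin, LAMA1 with LAMB1 and LAMC1, thus had its 3 transcripts at like levels on that day, which says nothing of protein. LAMC3 reached 34.7 to 40.0 CPM at D3. It fell 2.37-fold to D5 (log2 -1.24, SE 0.43, adjusted p = 0.039), a call that was lost in 7 of 8 fits that each left out 1 well of these 2 groups, and 4.61-fold from D9 to D30 (log2 -2.20, SE 0.49, adjusted p = 0.00058).

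Of the laminin-binding integrins, ITGA6, the main stem cell subunit, fell early. Its Pluri wells held 269 to 298 CPM, D0 222 to 240, D1 153 to 183, D3 81.0 to 109 and D5 21.7 to 30.2, so that no 2 neighbouring groups overlapped from Pluri to D5. The largest step was that from D3 to D5, 3.54-fold (log2 -1.82, SE 0.27, edgeR adjusted p = 2.8e-06); the step from D1 to D3 was -0.84 (SE 0.30, adjusted p = 0.034), under the size for a call. ITGA6 then rose 2.20-fold to D9 (log2 1.14, SE 0.24, adjusted p = 0.00048), where the wells held 43.1 to 74.0 CPM. At D90 they held 18.9, 28.9 and 30.4 CPM. ITGA6 spans chr2:172427354-172506282 on the plus strand and overlaps ITGA6-AS1 on the other strand.

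ITGA7, the muscle laminin receptor subunit, showed no call until the last step. Its wells held 49.1 to 60.5 CPM at D0, 23.1 to 24.7 at D3 and 24.5 to 57.7 at D9. At D90 they held 102, 118 and 287 CPM, against 28.3, 71.0 and 82.3 at D30. The rise from D30 to D90 was 2.78-fold (log2 1.48, SE 0.40, edgeR adjusted p = 0.015) but rested on single wells: it was 0.86 (adjusted p = 0.18) without D90 replicate 4 and 1.14 (adjusted p = 0.064) without D30 replicate 10, and the adjusted p was 0.362 in a fit of the 2 groups alone. BLOC1S1 and METTL7B overlap ITGA7 on the other strand. ITGA3, the third laminin-binding subunit, was called in no comparison. Its mean went from 23.8 CPM ± 2.82 (n = 3) at D3 to 137 ± 63.3 (n = 3) at D90. From D5 to D9 it changed by 0.93 (SE 0.28, adjusted p = 0.015), with overlapping wells, and by 1.25 (adjusted p = 0.0013) without D5 replicate 3, which at 51.6 CPM lay above the other 4 (19.8 to 28.4).

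Per length, ITGA6 was 75.1% ± 2.25 (n = 3) of the 3 laminin-binding subunits in Pluri, 59.7% ± 4.81 at D0, 34.2% ± 5.01 (n = 5) at D9 and 6.94% ± 4.25 (n = 3) at D90. The losses of 25.5 points to D9 and 27.2 points to D90 had an exact permutation p of 0.0357 each, the smallest possible (adjusted p = 0.0429). ITGA7 went from 28.8% ± 2.65 at D0 to 31.9% ± 4.78 at D9, a difference that did not pass by TPM (exact permutation p = 0.357, adjusted p = 0.357) but did by share of counts (6.92 points, adjusted p = 0.039). Between these days the share was 47.5% ± 5.85 (n = 5) at D5 and 43.3% ± 2.06 (n = 5) at D7. It was 56.7% ± 12.1 at D90, a gain of 24.8 points over D9 (exact p = 0.0357, adjusted p = 0.0429). All D90 wells (43.1% or more) lay above all D9 wells (39.7% or less), but they overlapped those of D5 (37.7% to 53.3%) and D7 (41.8% to 46.8%).

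ITGA5, ITGA8 and ITGA9 rose from D1 to D3. ITGA5, the fibronectin receptor subunit, had wells at 32.3 to 35.7 CPM at D1 and at 299, 427 and 449 at D3, a rise of 11.7-fold (log2 3.55, SE 0.45, edgeR adjusted p = 9.0e-08), and fell 3.21-fold to D5 (log2 -1.68, SE 0.35, adjusted p = 0.00064). ITGA8, a subunit known from kidney and muscle mesenchyme, had 0.321 to 0.560 CPM at D1 and 29.2 to 47.8 at D3 (log2 6.60, SE 0.86, adjusted p = 1.7e-07). It had 43.0 to 78.3 CPM at D5 and no later call. ITGA9, which binds tenascin and VCAM1, had 7.94 to 9.43 CPM at D1 and 195 to 218 at D3, a rise of 23.1-fold (log2 4.53, SE 0.35, adjusted p = 9.4e-13). It fell 5.25-fold to D5 (log2 -2.39, SE 0.26, adjusted p = 1.2e-08), stood at 59.1 to 85.3 CPM at D9, fell 4.13-fold to D30 and rose 4.60-fold to D90 (log2 2.20, SE 0.31, adjusted p = 1.8e-05), where replicate 4 had 146 CPM and the other wells 47.9 and 46.4. Without that well the last rise was 1.44 on the log2 scale (adjusted p = 0.00044). In an edgeR fit of the 2 groups alone it was 2.19 (adjusted p = 0.213), which is not a call. ITGA9-AS1 overlaps ITGA9 on the other strand.

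Of 16 other integrin ligands, 4 rose (all genes 11%) and 1 fell (all genes 6.8%) from D1 to D3: fibronectin (FN1) by 3.42 on the log2 scale (SE 0.40, edgeR adjusted p = 2.0e-08), from 365 to 3919.5 CPM, tenascin C (TNC) by 4.29 (SE 0.45), fibrillin 2 (FBN2) by 4.14 (SE 0.51) and ICAM1 by 1.77 (SE 0.57; not called without D1 replicate 1, D1 replicate 3 or D3 replicate 3, 1.60 to 1.62), while THBS2 fell by 7.37 (SE 0.79). More of them were called from D5 to D9, where 11 rose (all genes 6.84%) and TNC fell by 1.67 (SE 0.31). VCAM1, which binds ITGA4 and ITGA9, rose by 4.39 (SE 0.40), vitronectin (VTN) by 2.25 (SE 0.44), thrombospondin 1 (THBS1) by 2.26 (SE 0.68), FBN2 by 1.70 (SE 0.35) and FN1 by 1.68 (SE 0.29), to 10961 CPM. With 1 well left out, 6 to 10 of the 16 rose in that step, the lowest counts being 6 without D5 replicate 2 and 7 without D5 replicate 5. The median log2 fold change of the list was 0.54 from D1 to D3 and 1.69 from D5 to D9. Of 14 basement membrane partners of laminin, 8 rose from D1 to D3 (all genes 11%), among them the laminin linker nidogen 2 (NID2, 3.49, SE 0.32), SPARC (2.76, SE 0.37), FBLN2 (3.88, SE 0.54) and the collagen IV chains COL4A1, COL4A5 and COL4A6, and the count was 8 with any 1 well left out. No test compared these lists with other genes.

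ITGA5 at the end of the course rested on 1 well. D30 wells held 90.6, 54.1 and 550 CPM, and D90 wells 63.3, 94.2 and 55.5. The called fall of 1.71 on the log2 scale from D30 to D90 (SE 0.42, edgeR adjusted p = 0.0077) was -0.03 (adjusted p = 0.98) without D30 replicate 3. The same well had 172 CPM of ITGA2, a collagen receptor subunit, against 26.4 and 5.31, and 143 CPM of ITGB6, an epithelial subunit that activates TGF-beta, against 27.4 and 18.9. The ITGA2 calls (log2 2.97, SE 0.67, from D9 to D30 and -3.03, SE 0.81, from D30 to D90) became 0.89 (adjusted p = 0.32) and -0.94 (adjusted p = 0.53) without it, and the second also missed the threshold without D90 replicate 2 (adjusted p = 0.052) or 5 (adjusted p = 0.066). That well had the lowest cardiomyocyte marker sum of D30 (12214 TPM) and the highest epithelial one (4112 TPM against 1001 and 3086). The part of these cell types in the values was not tested.

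ITGAV, the alpha subunit shared by receptors for vitronectin and latent TGF-beta, was called in no comparison yet had its lowest group mean at D1 (80.6 CPM ± 1.39, n = 3) and its highest at D90 (736 ± 304, n = 3). Its D90 wells held 546, 577 and 1087 CPM, and the highest well up to D3 held 117. From D9 to D30 it changed by 0.71 (SE 0.27, edgeR adjusted p = 0.043), with overlapping wells. ITGA2B, the platelet subunit, had group means of 1.48 to 9.99 CPM. It rose from Pluri to D0 (log2 1.34, SE 0.34, adjusted p = 0.015, lost without any 1 of Pluri replicate 1, Pluri replicate 2 or D0 replicate 2), fell to D1 (-2.33, SE 0.35), rose to D3 (1.71, SE 0.35) and fell from D9 to D30 (-2.15, SE 0.34). The 4 markers of megakaryocytes and platelets summed to 11.3 to 12.2 TPM in the Pluri wells, 8.23 to 9.36 in the D0 wells and 0.290 to 1.79 in the D1 wells. Most of this was PF4, with means of 11.1, 8.65 and 0.875 TPM. The other 3 were under 1 TPM in every well of these groups, with GP1BA and GP9 at 0 counts in all D0 and D1 wells. The part of these markers in the ITGA2B values was not tested.

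**Figure D4:**
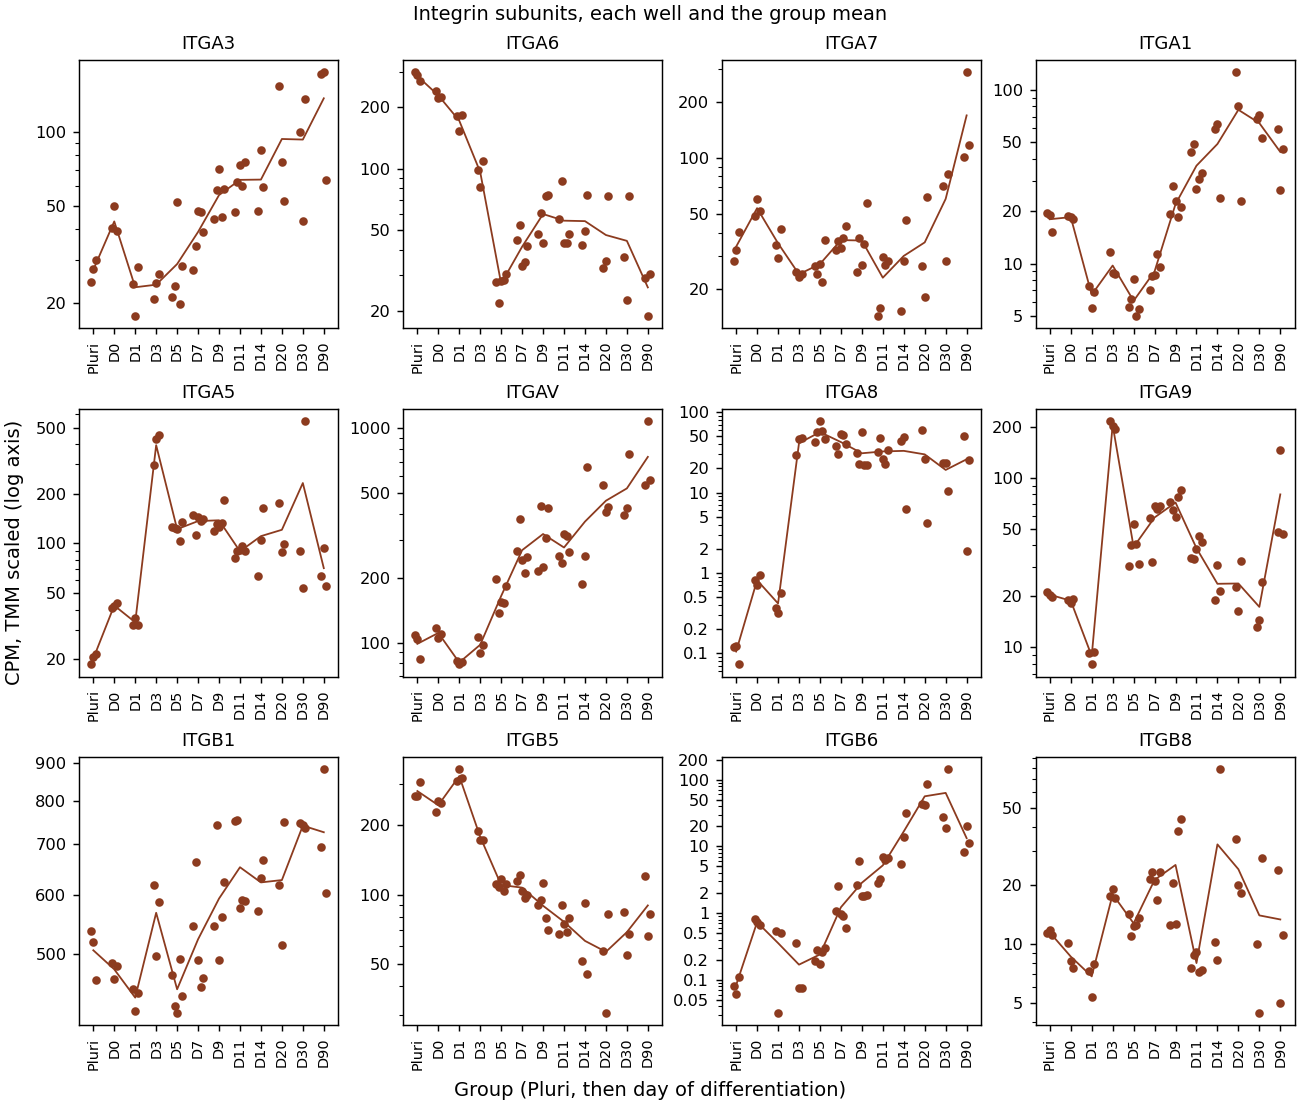
Levels of 12 integrin subunits in CPM (log axis, a scale of its own in each panel) by group, with a point for each well and a line through the group means. The means of ITGA5 and ITGA9 peak at D3, ITGA6 drops up to D5, ITGAV is highest at D90, ITGB6 climbs after D5, and 1 D30 well stands high for ITGA5 (550 CPM) and ITGB6 (143).

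Among the collagen-binding subunits, ITGA1 was low from D1 to D7 and then rose. It fell 2.79-fold from D0 to D1 (log2 -1.48, SE 0.35, edgeR adjusted p = 0.0020), from 18.1 to 18.8 CPM to 5.56 to 7.45, and rose 3.60-fold from D5 to D9 (1.85, SE 0.28, adjusted p = 3.8e-06) and 2.92-fold from D9 to D30 (1.55, SE 0.30, adjusted p = 0.00010). D30 wells held 52.9, 67.8 and 71.7 CPM. PELO overlaps ITGA1 on the same strand. ITGA11 stayed under 10 TPM but went from 3.73 CPM at D9 to 18.9 at D30 in group means, a call (log2 2.34). The fibroblast markers (COL1A1, COL3A1, DCN, LUM, POSTN) had mean sums of 851 TPM at D5, 1206 at D9 and 1801 at D30, and their part in ITGA1 and ITGA11 was not tested.

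ITGB1, the partner of all laminin-binding alpha subunits above, stayed high in all groups. Its group means ran from 437 CPM at D1 to 742 at D30, and from 244 to 452 TPM, higher per length than any alpha subunit in every group. From D5 to D9 it changed by 0.40 (SE 0.12, edgeR adjusted p = 0.017), with overlapping wells and no call. ITGB5, a partner of ITGAV, had its highest wells at D1 (309 to 349 CPM) and changed by -0.87 to D3 (SE 0.23, adjusted p = 0.0038; 172 to 189 CPM), just below the size for a call. D5 wells held 103 to 117 CPM and D20 wells 30.8 to 82.0. ITGB3, the other classic partner of ITGAV, went the opposite way at lower levels: 0.261 to 0.340 CPM at D3, 1.33 to 3.70 at D5 and 8.26 to 17.3 at D9, with calls from D3 to D5 (log2 3.11, SE 0.56, adjusted p = 8.7e-05) and from D5 to D9 (2.05, SE 0.38, adjusted p = 8.8e-05). A further call to D30 (1.42) had overlapping wells and became 0.82 (adjusted p = 0.15) without D30 replicate 3.

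ITGB6 had at most 0.805 CPM in any well up to D5, with 0.656 to 0.805 CPM (19 to 24 counts) in the D0 wells, above the 2 to 3 counts of the Pluri wells without a call (log2 3.07, adjusted p = 0.059), and 0.171 to 0.298 CPM at D5. It rose 11.5-fold to D9 (log2 3.53, SE 0.62, edgeR adjusted p = 4.5e-05) and 22.3-fold from D9 to D30 (4.48, SE 0.55, adjusted p = 5.7e-08). Without D30 replicate 3 the second rise was 3.03 (adjusted p = 1.7e-05). The called fall to D90 (-2.26, SE 0.61, adjusted p = 0.016) was -0.81 (adjusted p = 0.47) without that well, and also missed the threshold without D90 replicate 2 (-2.01, adjusted p = 0.078) or replicate 5 (-2.15, adjusted p = 0.070). ITGB8, another TGF-beta activating subunit, was called in no comparison, with wells from 4.45 to 78.7 CPM.

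Subunits known from leukocytes were low. ITGAE was the only one of them over 10 TPM, at 16.1 to 41.2 TPM in group means with at most 13.6 CPM in any well, and fell 2.34-fold from D1 to D3 (log2 -1.23, SE 0.21, edgeR adjusted p = 2.1e-05). HASPIN overlaps it on the other strand. ITGAL, ITGAM, ITGAX and ITGB7 had group means of at most 0.681 CPM and ITGB2 of at most 2.85. The leukocyte markers (PTPRC, SPI1, CD68, CSF1R, LAPTM5) summed to 0.466 to 0.707 TPM in the D0 wells, 5.56 to 15.1 in the D9 wells and 3.50 to 22.3 in the D14 wells. At D9 LAPTM5 had 5.35 to 9.24 TPM and CD68 0.108 to 6.98, and the other 3, PTPRC among them, were under 1 TPM in every well. Their part in these values was not tested. The 13 members under 10 TPM gave 22 of the 63 calls, and 10 of those 22 were lost when 1 well was left out, against 9 of 41 calls of the other members. One of the 22 was ITGA4, a subunit for VCAM1 and fibronectin, at 0.353 CPM at D9 and 5.93 at D30 (log2 4.05, and 3.30 without D30 replicate 1, which held 10.7 CPM).

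LAMA3, LAMB3 and ITGB4, which build the anchoring structures of skin together with ITGA6, stayed low but had their highest group means at D90: 18.2, 17.4 and 15.8 CPM, or at most 5.52, 7.90 and 7.23 TPM. Only LAMA3 was called against D30 (log2 2.42), and not in a fit of the 2 groups alone (2.42, adjusted p = 0.11). In that fit 0 of 30 members tested were called from D30 to D90, and 7 had an unadjusted p under 0.05 by edgeR. DESeq2 on all 44 wells called 5 higher and 5 lower. The shares of all genes called in these other fits are not given here, so these counts are only descriptions.

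Of 17 other laminin receptors and membrane partners of integrins, 5 rose (all genes 11%) and 2 fell (all genes 6.8%) from D1 to D3, with the syndecan SDC4 up by 2.11 (SE 0.36) and SDC1 down by 2.05 (SE 0.38, both called by edgeR). From D5 to D9, 4 rose (all genes 6.84%). From D9 to D30, 4 rose (all genes 9.69%) and 2 fell (all genes 9.25%), with 3 higher and 1 lower without D30 replicate 10 and 3 higher and 4 lower without D30 replicate 3. The 4 were sarcospan (SSPN, 3.47, SE 0.21) and the sarcoglycans SGCA (2.30, SE 0.35), SGCB (1.01, SE 0.21) and SGCD (5.46, SE 0.78), members of the complex that ties dystroglycan, a receptor for the LAMA2 product, to dystrophin. SSPN, SGCA and SGCD kept their calls with any 1 well left out, and SGCB lost its call in 4 of the 8 fits (0.87 to 0.97). The 2 that fell were GPC3 (-3.18, SE 0.57) and SDC1 (-1.19, SE 0.34, not called without D30 replicate 10). From D30 to D90, 6 rose (all genes 2.65%), a count that was 3 without D30 replicate 1, without D30 replicate 3 or without D90 replicate 5.

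Of 26 cytoplasmic linkers, 4 rose (all genes 11%) and 1 fell (all genes 6.8%) from D1 to D3, 2 rose (1 without D5 replicate 5) and 3 fell from D3 to D5 (all genes 5.75% and 4.34%), 5 rose from D5 to D9 (all genes 6.84%) and 7 rose from D9 to D30 (all genes 9.69%). From D1 to D3 filamin C (FLNC) rose by 3.90 (SE 0.59) and the kindlin FERMT2 by 1.83 (SE 0.34), while FERMT1 fell by 3.08 (SE 0.33). From D5 to D9 the muscle proteins CSRP3 (5.92, SE 0.65) and melusin (ITGB1BP2, a partner of ITGB1; 5.30, SE 0.39) rose. From D9 to D30 CSRP3 rose by 3.83 (SE 0.59; 2.45, adjusted p = 0.00095, without D30 replicate 3) and tensin 1 (TNS1) by 2.88 (SE 0.31). The calls of 4 other linkers were lost without that well. FLNC had 4753 CPM ± 4951 (SD, n = 3) and zyxin (ZYX) 143 ± 156 at D30, and without replicate 3 their changes of 2.38 and 1.53 were 1.14 (adjusted p = 0.053) and 0.09 (adjusted p = 0.91). Those of BCAR1 and ITGB1BP2 were -0.14 (adjusted p = 0.79) and 0.93 (adjusted p = 0.062). In all, 4 linkers were called higher and 3 lower without this well, and 11 higher without D30 replicate 1.

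Of 9 genes that glycosylate dystroglycan or tie it to actin, 2 rose from D5 to D9 (all genes 6.84%), 3 from D9 to D30 (all genes 9.69%) and 2 from D30 to D90 (all genes 2.65%) by edgeR. Dystrophin (DMD) was among them in each step: by 1.73 (SE 0.32) to D9, by 1.11 (SE 0.35) to D30, which was 0.79 (adjusted p = 0.12) without D30 replicate 1 and 0.97 without D9 replicate 1 or 2, and by 1.28 (SE 0.40) to D90, which was 0.18 (adjusted p = 0.81) without D90 replicate 4, 0.97 (adjusted p = 0.23) without D30 replicate 3 and 1.33 (adjusted p = 0.050) without D30 replicate 10. With 1 well left out, 1 to 3 of the 9 were called higher from D9 to D30 and 0 to 2 from D30 to D90. Of the basement membrane partners, 2 rose (all genes 9.69%) and 6 of 14 fell (all genes 9.25%) from D9 to D30. The falls included SMOC1 (-2.07, SE 0.53), FBLN2 (-2.04, SE 0.48), the collagen IV chain COL4A6 (-1.80, SE 0.23), NID2 (-1.32, SE 0.27) and FBLN1 (-1.57, SE 0.31). The rises of COL4A1 (1.18, SE 0.29) and COL4A2 (1.36, SE 0.34) were 0.62 (adjusted p = 0.11) and 0.83 (adjusted p = 0.082) without D30 replicate 3. Summed cardiomyocyte markers were 8023 to 25827 TPM in the D9 wells and 12214 to 32455 in the D30 wells, the lowest of these in replicate 3, and their part in these changes was not tested.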

How the data were processed

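RNA of 44 wells was sequenced on 5 lanes from stranded total RNA libraries with 150-base paired reads, and RNA integrity (RIN) was a deposited score of 7.4 to 10. Per the submitters' processing notes, the authors used cutadapt, STAR 2.5.2b, RSEM 1.2.31 and hg38; whether counting used strand is not given in the sources used here. The authors deposited expected counts (93.8% whole numbers) and TPM per gene. Counts were rounded and tested with edgeR 4.0.16 (R 4.3.3): quasi-likelihood, TMM scaling, filterByExpr, all 44 wells, 1 mean per group, Benjamini-Hochberg adjustment. Levels over time are TMM-scaled CPM. Levels between genes are deposited TPM rescaled over the 19650 protein-coding genes, which held 15.4% to 41.9% of TPM. Shares were compared by exact permutation. DESeq2 1.42.0, limma 3.58.1 on log2(TPM + 1), other scaling and filters, a lane term, a replicate block, 2-group fits and leaving out each well were tried. The edgeR step was also tested on simulated data.

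Symbols come from GENCODE 29, which held 56769 of 60499 gene IDs, and promoters from RefSeq. The members and lists were chosen with earlier results of these data known. Tests are written out for members with a group mean of at least 10 TPM, at most the 5 largest rises and 5 largest falls per comparison; the others are given by range and counts. For other genes of the pathway the rule was the 1 or 2 largest changes per list. Further list genes, the uncalled values of LAMA5, LAMB2, LAMC1, ITGA3, ITGA6, ITGAV, ITGB1 and ITGB5, and those of ITGA4, ITGA11, LAMA3, LAMB3 and ITGB4 were chosen after their values were seen. Leaving out wells for the list genes was chosen after seeing the data.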

Additional observations from a re-analysis of the deposited data

Results flagged for a closer look

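Dixon's criterion was applied 120 times, to each member of at least 10 TPM and each tested share in each group of 5 wells. In 9 cases 1 well lay apart from the other 4, which chance meets in about 1 in 20 cases. All these tests reuse the wells of D5, D7, D9 and D11, so they are not independent and these rates cannot be compared directly. At D9, replicate 10 was low for LAMA1 (212.9 CPM, the next well 388.1) and LAMB2 (255.9 CPM, the next 313.2) and high for ITGB6 (6.117 CPM, the next 2.654). At D7, replicate 10 was high for ITGA2 (24.16 CPM, the next 7.196) and ITGB6 (2.58 CPM, the next 1.073) and low for ITGA9 (31.78 CPM, the next 58.2). ITGA3 was high in D5 replicate 3 (51.59 CPM, the next 28.38), ITGA5 in D9 replicate 4 (182.3 CPM, the next 133.0) and ITGA8 in D9 replicate 2 (56.66 CPM, the next 31.13). Groups of 3 wells were not tested this way.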

How the results depend on the processing

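None of the 75 results on members changed direction under any alternative run. Those results were the 63 calls, selected for a large change, and uncalled values chosen after they were seen. A reversal was thus unlikely in advance, and its absence says little of stability. Leaving out 1 well lost 9 of 41 calls of members that reached 10 TPM and 10 of 22 calls of the others. Genes of the other lists were not part of the 75. Among them, without D30 replicate 3, the log2 change of BCAR1 from D9 to D30 went from 1.36 to -0.14 (edgeR adjusted p = 0.79). That of THBS1 went from 1.875 to -0.83 (adjusted p = 0.44). Of 75 results, 74 kept their side of the threshold with RLE scaling and 74 with DESeq2, 71 with no filter on low counts, 68 with a lane term, and 48 with limma on protein-coding TPM. With at least 10 CPM in 3 libraries 58 of 59 did, and in fits of only the 2 groups 61 of 71. Counts of members called that moved by over 1.5 times were those from Pluri to D0 (2 members; 7 with only the 2 groups fitted, 4 with DESeq2, 1 with limma), from D1 to D3 (10; 6 with limma), from D3 to D5 (11; 7 with the stricter filter, 6 with limma) and from D30 to D90 (9; 0 with only the 2 groups fitted, where 7 had an unadjusted p under 0.05 in edgeR). The cause was not tested, and the shares of all genes called in these other fits are not given here. By share of counts in place of TPM, the ITGA7 share differed by 6.923 points from D0 to D9 (exact permutation, adjusted p = 0.039).

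Replicate numbers did not pair the wells: in 19 same-numbered pairs the correlation of deviations ran from -0.176 to 0.161. With a replicate block, 68 of 75 results kept their side and the members called from Pluri to D0 were 4. With the block the log2 step of LAMA5 was 1.25 from Pluri to D0 (edgeR adjusted p = 0.036) and -1.19 from D0 to D1 (adjusted p = 0.019). D90 and D30 share no replicate number.

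Leaving out 1 well gave 1 to 2 members called from Pluri to D0, 6 to 7 from D0 to D1, 8 to 9 from D1 to D3, 8 to 10 from D3 to D5, 9 to 12 from D5 to D9, 14 to 19 from D9 to D30 and 6 to 9 from D30 to D90. From D0 to D9 the share differences ran from -32.01 to -28.21 points for LAMA5, 25.38 to 30.07 for LAMA4, -1.612 to -1.224 for LAMA2, -29.95 to -26.37 for LAMB2, -28.21 to -23.53 for ITGA6 and 1.154 to 4.439 for ITGA7. From D9 to D90 they ran from -19.1 to -15.25 for LAMA5, 4.4 to 18.47 for LAMA4, 28.4 to 43.45 for LAMA2, 22.46 to 39.68 for LAMB2, -29.44 to -25.19 for ITGA6 and 19.94 to 31.56 for ITGA7. With 1 well fewer the exact share tests cannot go below 0.0571 (3 against 4) or 0.0952 (2 against 5), so they say nothing of stability. Depth limits the members near 3 counts, such as LAMB4, ITGAL, ITGAX and ITGB7.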
